A study of Homo sapiens with 6 samples.

Results

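The METTL3 peak list of PC3 cells was described here across all genes and genome compartments. PC3 is an established, androgen-independent human prostate cancer cell line. Chromatin was profiled with an in-situ assay in which an antibody bound in permeabilised cells guides a transposase that cuts and tags the DNA beside it, with 100000 cells and 16 PCR cycles per library. The series holds 6 libraries, with METTL3, PRMT5 and the control each profiled once in PC3 and once in LNCaP, an androgen-responsive prostate cancer line. No treatment or genetic change is named for any of them. The control libraries carry IgG in their titles, while the antibody label of these samples gives a secondary antibody. The members are all entries of the PC3 METTL3 list that lie on chromosomes 1 to 22, X or Y (build hg38), called by the authors against the PC3 control, and numbered 7453 of 7500 entries. All 4 lists of the series together held 10267 such peaks. With 1 library per side there was no replicate, so no difference was tested. Ranges in brackets after a share are its 95% binomial interval (exact, Clopper-Pearson), which covers only counting error, and the read depth of the libraries is unknown.

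METTL3 is the catalytic subunit of the complex that writes N6-methyladenosine on RNA, together with METTL14 and the adaptor WTAP. Part of this writing takes place on nascent transcripts, and the complex has been described on chromatin at promoters, along transcribed genes and at repeats. An antibody against METTL3 in a tethered-transposase assay reports DNA near the protein, not the methyl mark.

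Few METTL3 summits, the base of highest signal in a peak, lay in promoters. Of the 6761 peaks on the chromosomes that the RefSeq promoter table (GRCh38.p14) covers, 19 had a summit within 250 bases before to 50 after a start site, 0.281% (0.169 to 0.439). The same count for the PC3 PRMT5 list was 116 of 1587, 7.31% (6.08 to 8.70). The 250 bp on both sides of protein-coding starts held 0.251% (0.147 to 0.402) of METTL3 summits, in 0.367% of the genome. The METTL3 share near starts was thus close to the share of sequence there. The folds of the 19 peaks ran from 3.68 to 5.92. Fold in the authors' list is the ratio of the library's signal to what the control predicts. Among the protein-coding ones, the highest lay at CYP20A1, which encodes a cytochrome P450 family member (fold 5.92, chr2:203238759-203239050), CREM, a gene for a transcription factor that answers to cAMP (5.77, chr10:35167214-35167711), GPX5, an epididymal glutathione peroxidase gene (5.61, chr6:28525805-28526096), and SPX, which encodes the peptide spexin (5.61, chr12:21527778-21528069). The 250 bases before each of these start sites are shown because they are the protein-coding promoters with the highest folds among the 19. The noncoding LINC01972 (5.83) and LOC124900703 (5.78) ranked between CYP20A1 and CREM and are not shown. Folds of 5.61 to 5.92 were ordinary for the whole METTL3 list, with a median of 5.10 and an upper quartile of 5.92. The stretches run 5′ to 3′ in the gene's direction (plus strand in all 4). Capitals mark matches, on either strand, to the 6 motifs spelled out after them.
CYP20A1: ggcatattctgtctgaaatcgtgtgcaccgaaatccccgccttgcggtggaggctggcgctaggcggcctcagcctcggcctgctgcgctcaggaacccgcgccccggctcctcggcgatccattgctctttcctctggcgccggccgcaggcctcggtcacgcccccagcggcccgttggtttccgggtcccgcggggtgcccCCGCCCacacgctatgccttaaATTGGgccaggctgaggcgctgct
CREM: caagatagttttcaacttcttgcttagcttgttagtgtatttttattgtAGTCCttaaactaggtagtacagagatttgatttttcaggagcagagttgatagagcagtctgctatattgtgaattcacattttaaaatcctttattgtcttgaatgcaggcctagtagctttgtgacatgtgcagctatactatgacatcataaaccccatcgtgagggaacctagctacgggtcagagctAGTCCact
GPX5: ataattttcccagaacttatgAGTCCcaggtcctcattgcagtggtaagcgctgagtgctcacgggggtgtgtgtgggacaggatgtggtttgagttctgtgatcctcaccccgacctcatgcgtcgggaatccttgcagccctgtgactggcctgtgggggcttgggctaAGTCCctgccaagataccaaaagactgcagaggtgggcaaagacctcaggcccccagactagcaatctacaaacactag
SPX: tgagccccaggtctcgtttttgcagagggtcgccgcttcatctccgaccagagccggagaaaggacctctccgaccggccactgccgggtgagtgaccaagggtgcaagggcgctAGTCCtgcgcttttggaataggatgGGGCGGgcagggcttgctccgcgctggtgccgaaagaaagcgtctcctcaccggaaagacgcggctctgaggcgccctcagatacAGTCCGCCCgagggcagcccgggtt
These windows are chr2:203238768-203239017, chr10:35167314-35167563, chr6:28525762-28526011 and chr12:21527702-21527951. Their base content differed: G and C made up 69.2% of the CYP20A1 stretch, with 26 CpG pairs, and 38.4% of the CREM stretch, with 2. The summit lay 166 bases before the start in CYP20A1, 138 in CREM, 21 in GPX5 and 58 in SPX. In the SPX stretch the last GGACT match and a GGGCGG match, both on the opposite strand, overlap.

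The 19 windows, each of 300 bases, were searched for 6 motifs on both strands, and the share among all 34943 distinct windows was counted the same way. CCAAT, the core letters of a common promoter box, was found in 4 of 19 (21.1%, against 34.6% of all windows). GGGCGG, a GC box, was in 5 (26.3% against 44.9%), TATAAA in 1 (5.26% against 11.6%), TGACTCA, an AP-1 site, in 1 (5.26% against 4.96%) and CCGGAAG, an ETS site, in 2 (10.5% against 10.2%). GGACT, which on RNA is a common form of the methylation consensus, was in 13 (68.4% against 44.1%). It was counted on either DNA strand, in windows that lie mostly before the start, so these are not counts of sites on transcripts. The median GC content was 60% in the 19 windows and 58.7% in all, and the median number of CpG pairs was 7 and 14. With 19 windows these shares are a description only.

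Many METTL3 peaks of PC3 shared the same few values. Their fold had a median of 5.10, with 5% below 3.79 and 5% above 7.13, and the highest was 13.8. A width of 292 bp, the smallest in the list, was found in 5436 peaks, 72.9%, and 6 peaks were wider than 1 kb. In the PC3 PRMT5 list the smallest width, 164 bp, was found in 17.3%. The 10 commonest pairs of fold and −log10 q held 3890 METTL3 peaks, 52.2%, against 19.6% for PRMT5 in PC3, and in LNCaP 28.9% for METTL3 and 20.5% for PRMT5. The 12 commonest folds stood 0.303 apart, from 3.79, with 144 peaks, through 5.01, with 572, to 7.13, with 110. All 7453 peaks together covered 2.43 Mb.

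**Figure D1:**
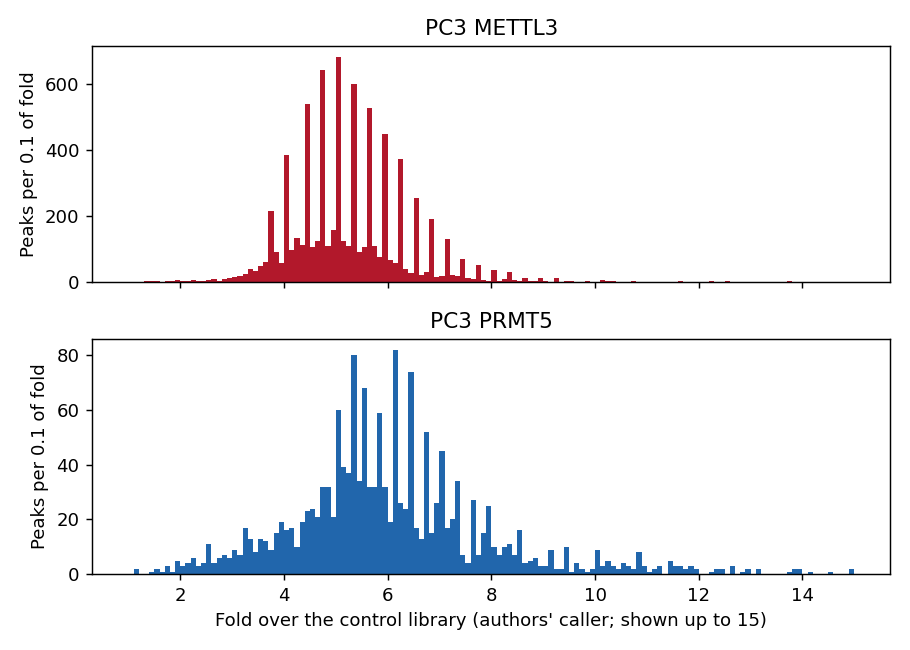
Number of peaks (vertical axis) per 0.1 of fold over the control (horizontal axis, shown up to 15) in the PC3 METTL3 list (top) and the PC3 PRMT5 list (bottom). The METTL3 peaks pile up on evenly spaced values around their median of 5.10, while PRMT5 peaks reach further to the right.

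Of the 12 peaks with the highest fold, 10 lay between protein-coding genes, 2 inside a gene body and 0 at a gene end, where 54.3%, 39.9% and 5.86% of the whole list lay. The first, of fold 13.8 at chr4:166580033-166580694, was 153 kb from the nearest gene end, that of SPOCK3, a proteoglycan gene. It was followed by chr4:63201446-63201905 (12.6), 1075 kb from TECRL, and by chr10:44675594-44676004 (12.3), 236 kb from TMEM72. The peak at chr2:18294432-18294936, also of fold 12.3, had no gene end within 260.1 kb. The higher of the 2 peaks inside genes lay in CCDC6 (11.7, chr10:59867588-59868235). The nearest of the others to a gene was 10.2 kb from TNFSF4, a T-cell costimulatory ligand gene, with a fold of 10.8. Of the 12 peaks, 5 overlapped a PC3 PRMT5 peak, as did 1.99% of the whole list and 34 of the 100 peaks with a −log10 q above 10. Both lists share a control library, and the overlap was not tested.

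The 12 peaks of highest fold had a −log10 q of 14.7 to 27.1. The 4 peaks with a −log10 q above 100 had folds of 2.52 to 3.87, below the median of the list. The highest −log10 q, 22230, belonged to chr3:93470280-93470938, 402 kb from PROS1, with a fold of 3.87. The other 3, with values of 798 to 1448, lay near each other on chromosome 4, 647 to 649 kb from CWH43. Only 100 of the 7453 peaks exceeded a −log10 q of 10, and 16 of these 100 lay in stretches of 2 Mb or more that hold no annotated gene, where 81 peaks of the list were found. At the other edge of the list, the 4 peaks of lowest −log10 q, 1.31, had folds of 3.27 to 3.32 and all had the smallest width. They lay inside NR2C2, a nuclear receptor gene, inside PRKCH and PTPN2, which encode a protein kinase and a tyrosine phosphatase, and 2.96 kb from an end of CFAP184.

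The peaks were spread over genome compartments almost as the genome itself is. Inside protein-coding gene bodies, away from their ends, lay 2971 peaks, 39.9% (38.7 to 41.0), and this compartment makes up 39.9% of the genome outside gene-free stretches. Between protein-coding genes lay 4045 peaks, 54.3% (53.1 to 55.4), in 53.2% of the genome. The 81 peaks in gene-free stretches are counted in the list's shares, although the genome shares leave these stretches out. Gene ends, meaning the 3 kb on both sides of a protein-coding gene's first and last base, held 437 peaks, 5.86% (5.34 to 6.42), in 6.89% of the genome. In the PC3 PRMT5 list the 3 shares were 38.5%, 32.9% and 28.6%. The median fold of the METTL3 peaks was 5.06 in bodies, 5.15 between genes and 5.01 at ends. With the list cut into 4 groups by fold, 5.74% (4.73 to 6.89) of the lowest group lay at gene ends and 5.48% (4.49 to 6.61) of the highest, intervals that overlap.

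**Figure D2:**
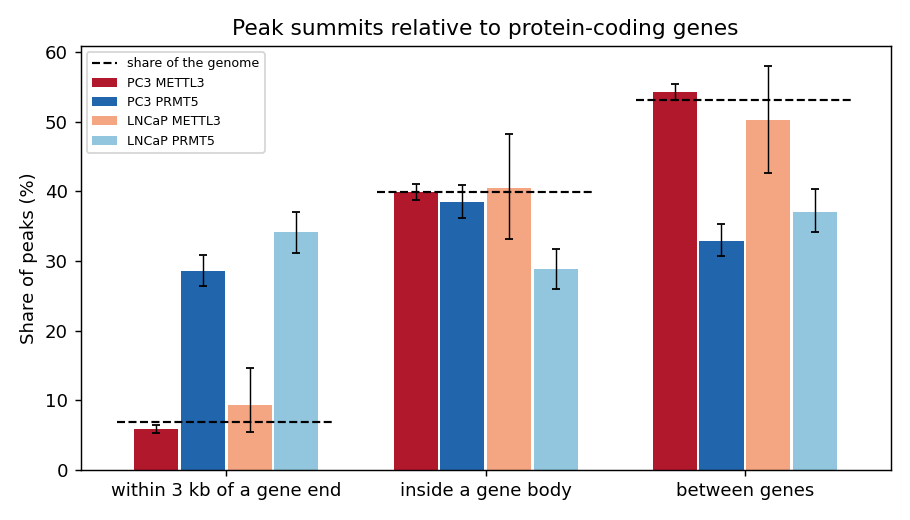
Share of peak summits (vertical axis, %) at gene ends, inside gene bodies and between protein-coding genes for the 4 lists, with exact 95% binomial intervals as error bars and the share of the genome as a dashed line. PC3 METTL3 bars (39.9% in bodies, 54.3% between genes) stand near the dashed lines, and the PRMT5 bars of both lines stand above it at gene ends.

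The genome shares changed little when taken where the peaks lie. When each 1-Mb window of the genome was weighted by its number of METTL3 peaks, gene ends made up 6.49% of the sequence, bodies 41.1% and the space between genes 52.5%. Unlike the shares above, this weighting keeps the gene-free stretches. The list's 5.86% (5.34 to 6.42) at gene ends was below both genome shares, 6.89% and 6.49%. The weighted shares for bodies and for the space between genes lay just outside the list's intervals of 38.7 to 41.0 and 53.1 to 55.4. For the PC3 PRMT5 list, the same weighting gave 16.1% gene-end sequence against its 28.6% of peaks. Of the METTL3 peaks between protein-coding genes, 958 of 4045 lay inside a gene for a long noncoding RNA, 23.7% (22.4 to 25), and such genes make up 23.1% of that compartment. Pseudogenes held 115, 2.84% (2.35 to 3.40), against 2.87% of the sequence. The median distance from a METTL3 summit to the closest protein-coding gene end was 61.8 kb, against 10.3 kb for PC3 PRMT5 and 32.4 kb for LNCaP METTL3. From 300 to 1000 kb from any such end lay 1115 of the 7453 METTL3 peaks of PC3, with an interval of 14.2% to 15.8%. A further 170, 2.28% (1.95 to 2.65), lay beyond. The share of the genome at these distances was not computed. Whether METTL3 peaks lie farther from genes than the sequence itself does was therefore not tested with distances.

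Around start sites, taken without chromosome 8, which the promoter table does not cover, METTL3 summits showed no peak just before the start. In the 5 kb on both sides of protein-coding start sites, each of 20 bins of 500 bp held 11 to 28 summits, 0.163% to 0.414% of the list. For PC3 PRMT5 the bin just before the start held 116 summits, 7.31%, and the lowest bin held 6. Within 1 kb of a start lay 86 METTL3 summits, 1.27% (1.02 to 1.57), in 1.33% of the genome, and within 250 bp lay 17, 0.251% (0.147 to 0.402), in 0.367%. With genes of known strand cut into 5 equal parts, the part nearest the start held 16.9% (15.4 to 18.5) of 2321 body summits, the middle part 21.8% (20.2 to 23.6) and the last 18.1% (16.5 to 19.7). The outer parts are lessened by leaving out 3 kb at both ends. The PC3 PRMT5 values were 15.1%, 23.9% and 15.7% of 464.

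**Figure D3:**
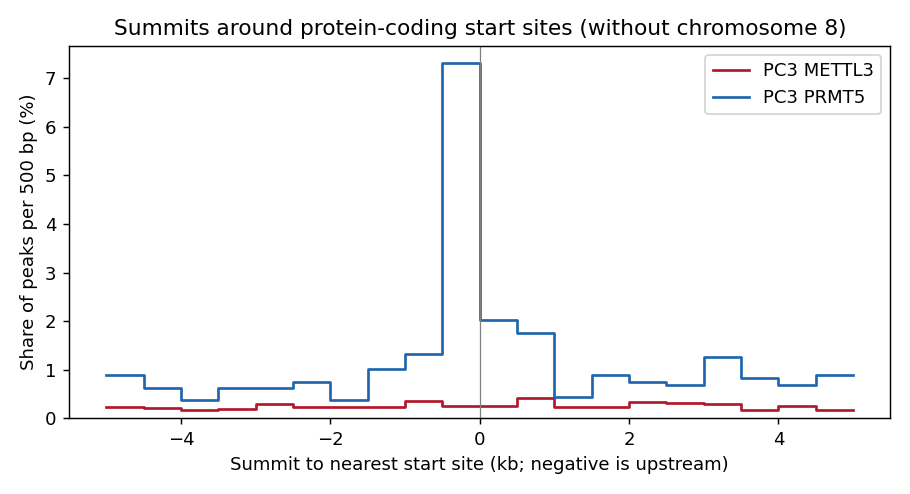
Share of all peaks (vertical axis, % per 500 bp) by distance of the summit from the nearest protein-coding start site (horizontal axis, kb, negative upstream), without chromosome 8. The METTL3 line stays between 0.163% and 0.414%, and the PRMT5 line reaches 7.31% just before the start.

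The density of METTL3 peaks differed widely between chromosomes. The whole list came to 2.59 peaks per Mb. Chromosome 14 held 5.08 per Mb (452 peaks), chromosome 8 4.87 (692), chromosome 3 4.27 (836), chromosome 10 4.16 (542) and chromosome 20 3.44 (213). These 5 chromosomes held 36.7% of the peaks on 21.5% of the sequence. At the other end stood chromosome 13 with 0.839 per Mb, chromosome 22 with 0.866, X with 1.02, chromosome 16 with 1.04 and chromosome 9 with 1.13, and Y held 3 peaks. The PC3 PRMT5 list, called against the same control, had another order: chromosome 19, the richest in genes, held 3.52 PRMT5 peaks per Mb against 0.577 for its whole list, and 2.02 METTL3 peaks per Mb.

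**Figure D4:**
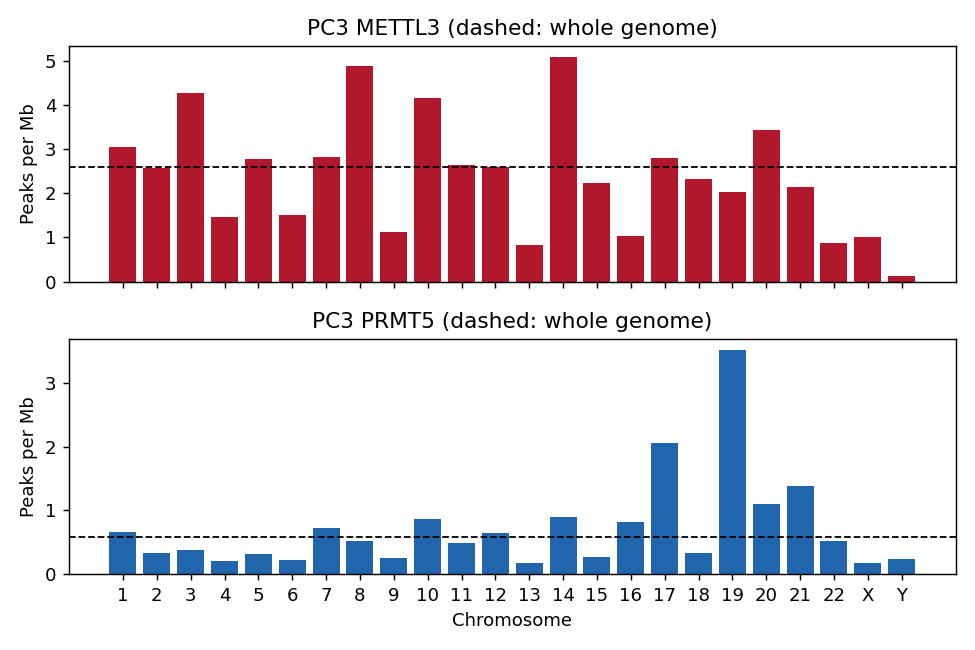
Peaks per Mb (vertical axes, from 0) on each chromosome for the PC3 METTL3 list (top) and the PC3 PRMT5 list (bottom), with the whole-genome value as a dashed line. METTL3 bars are highest on chromosomes 14, 8, 3 and 10, and PRMT5 bars on chromosomes 19 and 17.

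Within chromosomes the density changed over long stretches. On chromosome 8 the first 60 Mb held 29 METTL3 peaks, 0.509 per Mb, with 337 protein-coding genes, and the next 80 Mb held 640, 8.00 per Mb, with 274 genes. PC3 PRMT5 peaks numbered 15 and 38 in the same stretches, 0.263 and 0.475 per Mb. On chromosome 10 the stretch from 20 to 80 Mb held 440 METTL3 peaks, 7.77 per Mb, and that from 80 to 120 Mb held 50, 1.25 per Mb. PRMT5 counted 100 and 3 there, lower in the second stretch in both lists, which share a control. On chromosome 14 the stretch from 40 to 80 Mb held 328 METTL3 peaks, 8.20 per Mb, against 5.08 for the chromosome. PRMT5 counted 46 there, 1.15 per Mb, against 0.898 for the chromosome. Over 148 stretches of 20 Mb the density ran from 0.112 to 10.9 peaks per Mb, with a median of 2.18. The number of copies of each stretch in PC3 was not analysed here, and its part in these densities was not tested.

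The 5 fullest windows of 5 Mb lay on 3 chromosomes. That of chromosome 10 from 60 to 65 Mb held 83 peaks, with its highest, of fold 9.25, 29.6 kb from TMEM26. Chromosome 14 from 50 to 55 Mb held 63, with a peak of fold 9.25 at 18.4 kb from GNPNAT1, and from 65 to 70 Mb 57, the highest (8.65) inside GPHN. The remaining windows, of 59 peaks each, lay on chromosome 8. From 90 to 95 Mb the strongest peak (7.66) was 194 kb from the nearest gene end, that of RUNX1T1. From 135 to 140 Mb the strongest peak was 516 kb from FAM135B, and 4 protein-coding genes were counted. All 20 of the fullest windows lay on chromosomes 8 (10), 10 (6) and 14 (4). The median window held 10 peaks, 10 of 579 windows held none, and the 57 fullest held 29.4% of the METTL3 peaks. Ranked by PC3 PRMT5 peaks, the 57 fullest held 59.1% of that list, which is sparser, and a sparser list fills fewer windows by its count alone. The median fold inside the 5 windows, 4.78 to 5.61, lay around the 5.10 of the whole list.

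METTL3 peaks were about as dense in gene-poor as in gene-rich windows. With windows cut into 5 groups by gene density, in the poorest group, with 1.75 protein-coding genes per Mb, there were 2.59 METTL3 peaks per Mb, and in the richest, with 17.2 genes per Mb, 2.47. The groups between had 2.32, 2.88 and 2.66. Single windows spread more than the groups, with quartiles of 0.95 and 3.41 per Mb in the poorest group and 1.2 and 3.25 in the richest. From the poorest to the richest group PC3 PRMT5 peaks went from 0.186 to 1.53 per Mb and LNCaP PRMT5 peaks from 0.140 to 0.736. LNCaP METTL3 peaks stood at 0.0439 to 0.0526 per Mb in the first 4 groups and at 0.0951 in the richest.

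**Figure D5:**
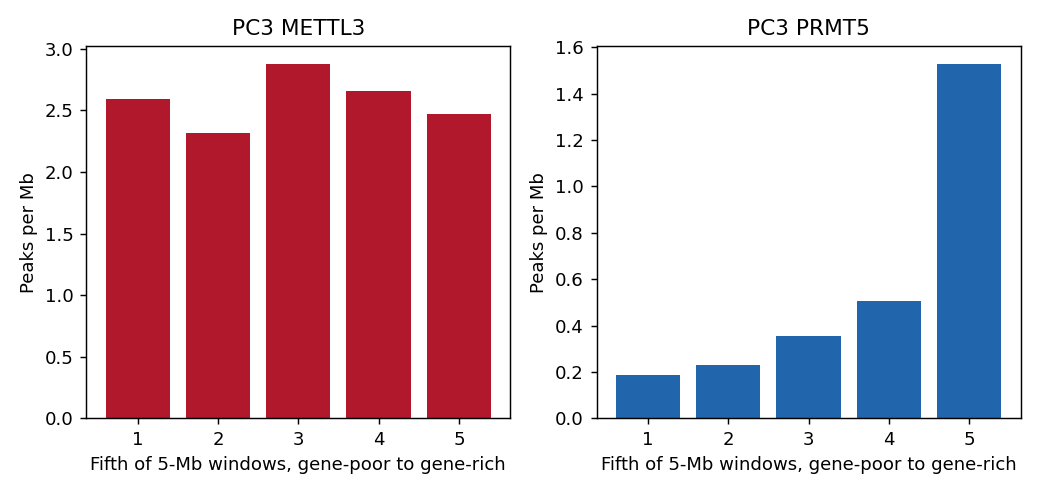
Peaks per Mb (vertical axes, from 0) in 5 groups of 5-Mb windows ordered from gene-poor to gene-rich for the PC3 METTL3 list (left) and the PC3 PRMT5 list (right). METTL3 bars stay between 2.32 and 2.88, while PRMT5 bars climb from 0.186 to 1.53.

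Neighbouring METTL3 summits were a median of 183 kb apart (quartiles 64 and 452 kb), and 466 of 7429 gaps were of 10 kb or less. Within 1 Mb of a chromosome's outermost gene or peak lay 122 peaks, 1.64% (1.36 to 1.95), near the 1.67% of the sequence that these zones make up, against 12.5% (10.9 to 14.1) in the PC3 PRMT5 list and 16.8% (11.5 to 23.2) in the LNCaP METTL3 list.

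At the level of genes, 496 of 20037 protein-coding genes had a METTL3 peak at an end, 2.48%, and 1911 had one inside the body, 9.54%. Of the genes with a peak at an end, 205 had their strongest nearest the start, 191 nearest the 3′ end, and for 100 the strand was not used. The median of their highest fold was 5.01, and 9 genes had more than 1 such peak. The highest belonged to LORICRIN, a protein of the cornified skin envelope (fold 8.65, chr1:153256652-153257035, 2820 bp from the gene), followed by ERO1A, an oxidase of the endoplasmic reticulum, and its neighbour GPR137C, which share a peak of fold 8.35, and by ARHGAP5, a GTPase-activating protein gene (8.34). RBMXL1 (8.06), ANO3 (8.04), MED13L, a subunit gene of the Mediator complex (8.04), SCN9A, a sodium channel gene of sensory neurons (7.74), CLRN1 (7.74), ACVRL1, a TGF-beta family receptor gene (7.74) and MSGN1 (7.43) were among those that came next. The distances of the genes named here ran from 506 bp to 2908 bp.

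Longer genes more often held a body peak. Of genes of 10 to 30 kb 2.63% had a body peak, of those of 100 to 300 kb 27.6%, and of the 69 genes over 1000 kb 87.0%. Per Mb of gene interior, 3 kb from both ends, the density was 2.12, 2.38 and 3.05 in these classes, and 2.60 over all genes. The PC3 PRMT5 density went the other way, 1.82, 0.422 and 0.147. A peak at an end was found at 2.04% of genes under 10 kb and 2.56% of those of 300 to 1000 kb.

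The genes with most body peaks were long, and most lay on chromosomes 10 and 14. CTNNA3, an alpha-catenin gene on chromosome 10, held 20 in 1851 kb, PCDH15, a protocadherin of inner-ear hair cells on the same chromosome, 18, GPHN, which encodes the inhibitory synapse scaffold gephyrin on chromosome 14, 17, PRKG1, a cGMP-dependent kinase gene on chromosome 10, 16, and LRMDA, also on chromosome 10, 15. PTPRN2 on chromosome 7 held 13, FHIT, a fragile-site gene on chromosome 3, 12, and KCNH5, ADK and RGS6 11 each. Per Mb of gene, among genes with at least 5 body peaks, the densest were MAP4K5, a kinase gene (6 peaks, 42.1 per Mb), GALNT9 (37.5), KCNH5, a potassium channel gene (31.8), DGLUCY (30.2), COL14A1 (24.1), JMJD1C, a histone demethylase family gene (22.6), FAM135B (21.8) and ADK, which encodes adenosine kinase (19.7). The 78 genes with 5 or more body peaks lay most often on chromosomes 14 (12 genes), 8 (11), 3 (9) and 10 (9). The median fold within the named genes ran from 4.04 in LRMDA to 5.92 in KCNH5, around the 5.06 of all body peaks.

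Among the 13 m6A writer genes, 0 had a peak at an end and 1 a body peak, VIRMA, a scaffold of the writer complex on chromosome 8, with a fold of 7.18. METTL3 itself had none, its nearest peak lying 664 kb away with a fold of 5.61. The nearest peak was 529.9 kb from METTL14 (fold 3.90) and 328 kb from WTAP (6.09). Among 15 eraser and reader genes, RBMX, a nuclear reader, had a peak 1253 bp from its end (4.70), and IGF2BP3, which encodes an mRNA-stabilising reader, a body peak (4.70). Of 14 partners of METTL3 in transcription and chromatin, 0 had a peak at an end and SMAD3 held a body peak (4.45). With 2.48% and 9.54% over all genes, the counts in these short lists are close to the background.

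Counts at gene ends were also small in prostate, epithelial, mesenchymal and integrin genes. Of 20 luminal and androgen-regulated genes 2 had a peak at an end, KLK2, a kallikrein gene (fold 6.83, 2678 bp from its start), and PMEPA1 (5.01), and 0 had a body peak. Of 20 basal and epithelial genes 0 had a peak at an end and 2 had body peaks, ESRP1, an epithelial splicing regulator gene on chromosome 8, with 4 (highest 5.85), and CDH1, which encodes E-cadherin, with 1 (4.10). Of 25 mesenchymal and matrix genes, the repressor gene ZEB2 had a peak at its end (4.10), and TWIST2 (5.01) and COL4A1 (4.70) held a body peak. Of 16 integrin genes ITGA2 had a peak 438 bp from its start (4.65) and 5 held body peaks, among them ITGA1 (6.83), ITGB5 (6.52) and ITGA9 (5.61), at 4.32 per Mb of interior. Over all genes 2.48% had a peak at an end and 9.54% one in the body, at 2.60 per Mb of interior, and with 16 to 25 genes a list these counts are a description only.

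In growth, RNA and repair genes the counts were again small. AP-1 and immediate early genes counted 2 of 24 at an end, EGR2 (5.35) and IER2 (4.88), and cytokine genes 0 of 23, with a body peak in VEGFC (5.92). Ribosomal protein genes counted 2 of 63, RPL4 (4.70) and RPS3 (4.71), and replication-dependent histone genes 0 of 24. SR and hnRNP splicing regulators had 3 of 29 at an end, 10.3% (2.19 to 27.4), an interval that takes in the 2.48% of all genes. Cell-cycle genes counted 1 of 33 at an end, CCNE2, a cyclin gene on chromosome 8 (6.03), and 2 with body peaks, MCM6 (4.37) and CDK1 (4.43). CCNE2, like VIRMA and ESRP1 above, lies on chromosome 8 from 90 to 95 Mb, among the 5 fullest windows. DNA repair genes counted 1 of 31 at an end, XRCC5 (4.77), and 3 with body peaks, among them PARP1, which senses DNA breaks, with 2 peaks (highest 8.39). Lysosomal genes counted 1 of 30 at an end, ATP6V1A, a proton pump subunit gene (6.22), and 1 with a body peak. All protein-coding genes had shares of 2.48% at an end and 9.54% in the body, and these short lists are a description only.

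The lists with many body peaks were those of long genes. Of 41 neuronal adhesion and synapse genes, with a median length of 896 kb, 32 held body peaks, 78.0% (62.4 to 89.4), among them NTM (8.04), LRRC4C (7.74), ROBO2 (7.43) and OPCML (6.83). Of 29 common fragile site genes, of median length 1370 kb, 23 did, 79.3% (60.3 to 92), among them PTPRN2 (9.09), DAB1 (7.13) and SDK1 (7.13). Of 44 neuronal ion channel genes 30 did, 68.2% (52.4 to 81.4), led by GABRG3 (7.74), CACNA1C, GRIK3, GRM7 and GRM8 (7.13 each). Per Mb of interior these lists held 3.05, 2.39 and 3.34 peaks, against 3.09 in all genes of 300 to 1000 kb and 3.05 in those over 1000 kb. Protocadherins held 24 peaks in 5 of 15 genes, 18 of them in PCDH15. Peaks at an end were found at 2 of 41, 0 of 29, 3 of 44 and 0 of 15. Of markers of other cell types, 0 of 17 T and B cell genes, 1 of 18 hepatocyte genes (CYP3A4, 5.61) and 0 of 14 erythroid genes had a peak at an end, and 2, 0 and 1 held a body peak. Among all protein-coding genes 2.48% had a peak at an end and 9.54% in the body. In lists this short, the end counts and the counts of other cell types are a description only.

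METTL3 also methylates primary microRNA transcripts, so microRNA genes were counted. Of 1913, 21 had a METTL3 peak within 3 kb, 1.1%, at 17 distinct peaks. Beside this, 2.48% of protein-coding genes had a peak within 3 kb of either end, a wider zone per gene. The microRNA share was not higher than that, and the genes named here are a description only. The clustered family on chromosome 19 made up 5 of the 21 genes, at 2 peaks that neighbouring hairpins share. The nearest were MIR4313, whose hairpin held the summit (fold 7.13), MIR585 at 169 bp (6.35), MIR4420 at 220 bp (4.17) and MIR518E at 476 bp (5.16).

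Most METTL3 peaks of PC3 were found in no other list. Of the 7453, 7287 overlapped no peak of the other 3 lists, 97.8%. Those lists are shorter, with 1661 peaks (PC3 PRMT5), 173 (LNCaP METTL3) and 980 (LNCaP PRMT5). By count alone, most of the 7453 would therefore be unshared. A PC3 PRMT5 peak overlapped 148 of them by at least 1 bp, 1.99% (1.68 to 2.33), which were 9.09% of the PRMT5 list (7.75 to 10.6). The 2 lists share a control library, and no overlap given here was tested. The shared peaks were wider, with a median of 438 bp against 292 bp, and not higher, with a median fold of 5.00 (quartiles 3.87 to 6.30) against 5.12 (4.49 to 5.92). Of the 148, 9 lay at gene ends, 61 in bodies and 78 between genes, and 34 were among the 100 peaks with a −log10 q above 10. Of the 6 shared places with the largest lower fold of the pair, 3 lay inside genes: CREM (METTL3 8.46, PRMT5 8.60; chr10:35159895-35160391, apart from the promoter peak shown above), the cation channel gene TRPM2 (9.25 and 7.95) and XKR6 (8.04 and 7.95). The others lay 68.8 kb from MRPL14 (10.2 and 23.2), 809 kb from EDIL3 (10.2 and 13.8) and 613 kb from TRIML1 (8.34 and 12.4). A LNCaP METTL3 peak overlapped 16 peaks, 0.215% of the PC3 METTL3 list, with a median fold of 3.36 in PC3. From the other side this was 9.25% (5.38 to 14.6) of the shorter LNCaP METTL3 list. A LNCaP PRMT5 peak overlapped 41, 0.55% of the PC3 METTL3 list, with a median fold of 4.48, and 4.29% (3.11 to 5.75) of the LNCaP PRMT5 list was shared. At the gene level PRMT5 peaks of PC3 marked 485 gene ends (2.42%), and 19 of these genes, 3.92%, were among the 496 with a METTL3 peak there, of which they made up 3.83%. For bodies the overlap was 156 genes, 32% of the 488 with a PRMT5 body peak and 8.16% of the 1911 with a METTL3 one. Over all genes 2.48% had a METTL3 peak at an end and 9.54% in the body, and longer genes more often hold a METTL3 body peak, as given above.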

How the data were processed

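Peak lists were used as deposited. Peaks are on hg38, and MACS2 2.1.0, Bowtie 1.1.1, Trimmomatic 0.33, bcl2fastq 2.17 and ChIPseeker are named, without roles, in the submitters' processing notes. How duplicates, read ends and thresholds were handled was not given in the sources used here. The deposited lists are named for 1 library against the control library of the same cell line, so replicates were not pooled. The deposited values per peak are a score (10 times −log10 q, rounded down), a fold (the ratio of the library's signal to what the control predicts), −log10 p and −log10 q, with a largest q in the PC3 METTL3 list of 0.0494. They only describe or rank peaks within a list.

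Summits were placed with a RefSeq gene table (GRCh38.p14, 59679 genes, 20037 protein-coding), which gives no strand, so either gene end counts. Start sites and strand came from the RefSeq promoter table (22199 start sites of 15843 protein-coding genes; chromosome 8 not used). Genome shares refer to 2881 Mb, without 206 Mb of stretches of at least 2 Mb that hold no gene. Only the shares weighted by 1-Mb windows keep these stretches. Gene-density windows were ranked by genes per Mb. Counting was tested on planted peaks. Python 3.11.15, pandas 2.3.3 and scipy 1.17.1 were used.

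The list and the 22 gene lists (558 names, all matched) were chosen with earlier results of these data known. Named items were the 12 highest peaks and 4 of lowest −log10 q, the 12 genes of highest end peak, the 10 with most and 8 with densest body peaks, up to 4 members per gene list and place, METTL3, METTL14, WTAP, the 5 fullest windows, the 6 shared regions of largest lower fold, and promoters holding a summit. The microRNA genes and the peaks of highest −log10 q were added after the peaks were seen. Some items that this rule names are not reported here.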

Additional observations from a re-analysis of the deposited data

Results flagged for a closer look

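The PC3 METTL3 list also holds 47 entries outside chromosomes 1 to 22, X and Y, which entered no count above. They lay on 32 unplaced or unlocalised contigs, and 0 were mitochondrial. Their median fold was 4.70 (1.62 to 11.5), their median width 388 bp, and 9 of them had a −log10 q above 100, against 4 of the 7453 peaks on the chromosomes. Each was called against the PC3 control, whose own signal there was not analysed here.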

How the results depend on the processing

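With 1 library per group there is no spread between replicates to measure, and the number of peaks depends on a read depth that is unknown. No paired analysis was possible because each group has 1 library. The share at gene ends was 2.07% with a 1-kb window, 9.16% with 5 kb, 15.7% with genes of all types and, chosen after seeing the data, 3.37% with start sites only; the share between genes was 56.0% and 52.8% with the 1-kb and 5-kb windows, and the share in bodies 47.7% with genes of all types. The 1-kb and 5-kb windows move these shares by their own construction, and so do the wider set of genes and the narrower set of sites. A −log10 q of at least 3, a fold of at least 5, leaving out chromosome ends and gene-free stretches, or leaving out chromosome 8 kept these 3 shares inside the intervals given above. Genes with a peak at an end numbered 160 (1 kb), 773 (5 kb), 290 (−log10 q of at least 3) and 289 (fold of at least 5). Genes with a body peak numbered 1239 with the q threshold and 1280 with the fold threshold, against 1911. The overlap with PC3 PRMT5 was 1.15% when 50% of both peaks had to be shared, 2.50% with the q threshold and 1.52% with the fold threshold. The share on chromosome 8 was 10.7% with the q threshold, against 9.28%, and the gene-poorest of the 5 window groups then held 1.57 peaks per Mb, with fewer peaks in the whole list.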
